A study of Mus musculus with 20 samples.

Results

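The cytosolic ribosomal protein genes were followed in whole mouse lung by RNA sequencing. They were taken by name from the deposited table, as every row named Rpl or Rps with a number and at most one letter, together with Rplp0, Rplp1, Rplp2 and Rpsa, leaving out names with a pseudogene suffix. This gave 82 members of 30691 named rows, 50 of the large and 32 of the small ribosomal subunit. The low-value filter (a signal of at least 10 in at least 4 libraries) kept 80 of them, 48 large and 32 small, and the 2 not kept were the paralogs Rpl3l and Rpl39l. In the GENCODE annotation 79 members are protein coding and 3 (Rps4l, Rpl6l and Rpl32l) are pseudogenes. Fau, Rps3a1 and Rack1 also encode ribosomal proteins but carry other names, and are given separately.

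Lungs came from mice labelled VIPKO or wild type (WT, given as C57BL/6), kept either at 10% oxygen for 4 weeks (hypoxia) or at 21% oxygen (normoxia). The groups held 5 VIPKO hypoxia, 4 VIPKO normoxia, 5 WT hypoxia and 6 WT normoxia libraries. Titles and design call VIPKO a knockout of the gene for vasoactive intestinal peptide, while the genotype label says knockdown, and the labels used here give neither the allele nor the age of the mice. They do not state that each library is a separate animal, so a p-value here reflects how far these libraries scatter, and that scatter may be technical. In bulk tissue, fewer cells of a type and less RNA per cell cannot be told apart.

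A cytosolic ribosome joins a small subunit, which reads the messenger RNA, to a large subunit, which forms the peptide bonds, and each subunit carries one copy of nearly every ribosomal protein on a core of ribosomal RNA. The messenger RNAs of these proteins typically begin with a C followed by a run of pyrimidines, the 5′ terminal oligopyrimidine tract, through which mTOR signalling governs their translation. They are commonly abundant messages in cells, though in these libraries the members together took 0.412% to 0.852% of the signal. Their genes have left many processed pseudogenes in the genome.

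RefSeq promoter windows (GRCm38.p6) were found for 60 of the 82 members, with 72 listed starts. The following stretches, from 40 bases before the annotated start through the first 20 transcribed bases, show the start regions of 5 of the members with the largest rises in VIPKO normoxia, then of Rps12 and Rps23, which had values below 0 there, and of Rpl4, which varied little. Capitals mark CTTTCC or CTTTTC, a C followed by pyrimidines.
Rpl38, chr11:114668540-114668599, plus strand: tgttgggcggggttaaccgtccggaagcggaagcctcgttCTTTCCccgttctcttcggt
Rpl39, chrX:37085203-37085262, minus strand: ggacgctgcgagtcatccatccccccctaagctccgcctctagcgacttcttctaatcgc
Rps21, chr2:180257339-180257398, plus strand: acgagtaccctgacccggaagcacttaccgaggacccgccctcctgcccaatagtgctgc
Rpl35, chr2:39005112-39005171, minus strand: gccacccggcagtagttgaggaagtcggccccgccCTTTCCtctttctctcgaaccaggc
Rpl37, chr15:5116573-5116632, plus strand: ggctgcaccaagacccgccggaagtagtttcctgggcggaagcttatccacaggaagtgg
Rps12, chr10:23787190-23787249, minus strand: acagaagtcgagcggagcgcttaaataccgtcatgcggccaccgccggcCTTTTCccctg
Rps23, chr13:90923082-90923141, plus strand: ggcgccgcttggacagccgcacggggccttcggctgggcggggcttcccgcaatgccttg
Rpl4, chr9:64173347-64173406, plus strand: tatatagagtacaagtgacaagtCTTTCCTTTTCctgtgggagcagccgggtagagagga

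Searched from 20 bases before to 30 bases after the start on the transcribed strand, CTTTCC or CTTTTC was present at 16 of 72 member starts (22.2%) and at 4.03% of all 32851 listed starts. On the opposite strand it was present at 1.39% of member starts and 3.89% of all starts. The 2 motifs overlap in Rpl4, and both were present at 1 member start. In the 20 bases around the start the median pyrimidine content was 60% for member starts and 50% for all starts. A match is a description of these letters and not a mapped start or site.

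Many members have near-identical copies elsewhere in the genome, and this bears on every value given for a single row. The table held 212 rows named as copies of 58 members (names ending in -ps or rt), with a median identity of 97.92% to the member's transcript over the 195 that could be aligned. The coding sequences of Rpl10 and its copy Rpl10-ps3 were 100% identical, as were those of Rps27 and Rps27rt. The stretches below, from GENCODE M21 transcripts, cover bases 190 to 249 of the Rpl37 coding sequence and bases 207 to 266 of that of Rpl9, and the capital is the base at which the copy differs from the member over the whole coding sequence of 294 and 579 bases.
Rpl37, chromosome 15, 5116645 to 5119140: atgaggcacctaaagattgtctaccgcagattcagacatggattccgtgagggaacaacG
Rpl37rt, chromosome 5, 115102923 to 115110268: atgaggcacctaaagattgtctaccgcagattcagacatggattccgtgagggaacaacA
Rpl9, chromosome 5, 65388364 to 65391444: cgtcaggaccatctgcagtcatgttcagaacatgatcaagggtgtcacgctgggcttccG
Rpl9-ps6, chromosome 19, 32465865 to 32466578: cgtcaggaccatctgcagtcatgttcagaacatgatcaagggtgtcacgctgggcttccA

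How reads were shared among such rows is not given in the sources used here. For 25 members the member's own row held under 50% of the signal summed over the row and its copies, and 31 copy rows stood above their member. Rpl10 held 3.78%, Rpl9 5.01%, Rps27 1.99%, Rpl23a 2.73%, Rpl37 11.3% and Rps6 12.4% of the sum, and the Rps6-ps4 row, a processed pseudogene on chromosome 2 that is 100% identical to the Rps6 transcript, averaged 4734 signal against 679 in the Rps6 row. Across libraries copy rows took 32.3% to 38.2% of the signal of members and copies together, but the split of some members shifted between libraries. The Rps2 row held 83.3%, 83.4% and 77.9% of its sum in VIPKO normoxia 2 to 4 and 84.7% in VIPKO hypoxia 2. It held 64.0% in VIPKO normoxia 1 and 61.1% to 68.6% in WT libraries. The Rpl35a row held 22.3%, 30.4%, 32.6% and 23.3% in the same libraries, against 68.7% in VIPKO normoxia 1. The Rpl14 row, at 33.2% to 40.5% in VIPKO normoxia, lay within its WT normoxia range. The part of these splits in the row values was not tested. Because of the copies, some changes are also given for the member summed with its copy rows, an alternative added after seeing the data. A change printed without a sum is that of the member's own row alone, also where the member has copy rows.

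Of the series as a whole, the estimated depth ran from 4.96 to 56.8 M reads. Vip signal was highest, at 106, in the library labelled VIPKO hypoxia 4 and reached 93.0 in WT normoxia 5, against at most 12.7 in the other libraries, so Vip did not separate the genotypes. Without the library labelled VIPKO hypoxia 4, the counts of members called were 31 for VIPKO against WT in normoxia, 1 for the same contrast under hypoxia, 0 for hypoxia in VIPKO, 34 for hypoxia in WT and 0 for the interaction. All 7 lung markers were present in every library, at no less than 3053 signal. Their summed signal was 472111 to 621674 in VIPKO hypoxia, 446544 to 688385 in VIPKO normoxia, 388935 to 757682 in WT hypoxia and 317428 to 439325 in WT normoxia. The lowest lung marker sums in WT hypoxia (WT hypoxia 4) and in WT normoxia (WT normoxia 2) lay in the libraries with the lowest member shares of those groups, and the part of this in the results was not tested. The sums did not speak for every marker. In WT hypoxia 4 the lowest of the 7 stood at 9341 signal, above that of every other library. The 6 thymic markers were all highest in VIPKO hypoxia 3 and the 8 skeletal muscle markers all highest in WT hypoxia 5. The 4 erythroid markers were all highest in WT hypoxia 4. The summed signal of the 2 mitochondrial ribosomal RNAs was 4506 to 9415 in VIPKO hypoxia, 12034 to 27208 in VIPKO normoxia, 396 to 7058 in WT hypoxia and 97.7 to 2075 in WT normoxia.

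Together the members made up 0.412% to 0.852% of the deposited signal of a library. Their share was 0.553%, 0.674%, 0.852%, 0.676% and 0.583% in VIPKO hypoxia 1 to 5, and 0.611%, 0.730%, 0.746% and 0.726% in VIPKO normoxia 1 to 4. In WT hypoxia libraries 1 to 5 it stood at 0.806%, 0.757%, 0.773%, 0.560% and 0.719%, and at 0.612%, 0.412%, 0.514%, 0.525%, 0.482% and 0.467% in WT normoxia libraries 1 to 6. WT normoxia was the low group. Its highest library, WT normoxia 1, lay just above the lowest library of VIPKO normoxia, and within the range of both hypoxia groups. The highest share of all, in VIPKO hypoxia 3, lay in the library whose summed thymic markers were 15902 signal, against 3.38 to 27.4 in the others.

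Large and small subunit members moved in step. The summed signal of large over that of small subunit members averaged 1.23 in the 5 VIPKO hypoxia libraries (SD 0.0543), 1.20 in the 4 VIPKO normoxia libraries (SD 0.0573), 1.18 in the 5 WT hypoxia libraries (SD 0.0187) and 1.21 in the 6 WT normoxia libraries (SD 0.0597). The ranges of all 4 groups overlapped. In no library did the ratio leave the range of 1.14 to 1.30.

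**Figure D1:**
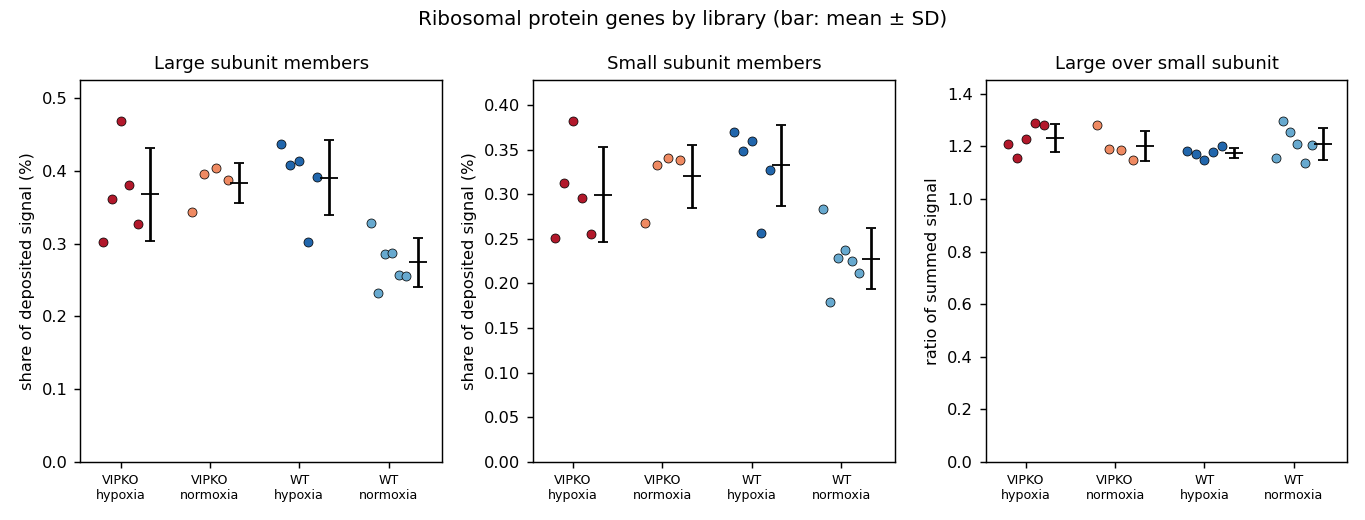
Share of the deposited signal (%) taken by large subunit members (left) and small subunit members (middle), and the ratio of the 2 sums (right), for each library (points) with the mean and SD of the group (bars). WT normoxia lies lowest in both subunits, while the ratio stays between 1.14 and 1.30 in all 20 libraries.

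Per 1 kb of annotated transcript, and with copy rows added, the highest mean signals over all libraries were those of Rpl13a (9638), Rpl10 (8698), Rplp0 (8071), Rpl3 (7274) and Rps14 (7166). Rplp0 is the base of the stalk that recruits elongation factors, and Rps14 lies in the region lost in human 5q syndrome. By row, the highest members not adjusted for length were Rpl4, Rplp0, Rpl7, Rpl8 and Rpl13a in the large subunit and Rps3, Rps2, Rps4x, Rpsa and Rps14 in the small. Rpl4 averaged 7477 and Rps3 5498 signal.

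Among the paralogs Rpl3l and Rpl39l had low values. Rpl3l, which replaces Rpl3 in striated muscle, was 140.5 in WT hypoxia 5 and at most 9.44 in the other libraries. WT hypoxia 5 was the library with the skeletal muscle markers, whose summed signal was 33784 there and at most 1011 elsewhere. Rpl39l, a paralog known from testis, did not exceed 2.13 in any library and was listed at 0 in most, and both testis markers in the table summed to at most 6.65. Rpl10l is not among the rows.

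VIPKO against WT in normoxia was the first comparison. Ribosomal protein genes were higher in VIPKO normoxia than in WT normoxia lungs, and the change was uneven, from a log2 fold change of 2.18 for Rpl38 to -0.90 for Rpl17. By limma with Benjamini-Hochberg adjustment over all 21658 features, 32 of the 80 members tested rose and 0 fell (51 at an unadjusted p under 0.05 in either direction), where 8.65% of all features were called, 4.69% higher and 3.96% lower. The rises took in 19 of 48 large and 13 of 32 small subunit members. The median log2 fold change was 0.49 for large and 0.59 for small subunit members and 0.01 for all features. The interquartile range of the members was 0.25 to 0.87, and 72 of 80 had a positive value, against 50.8% of all features. In 25 members every VIPKO normoxia library lay above every WT normoxia library, as it did for 4.75% of all features, and in none was the reverse seen, as it was for 5.13%.

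Rpl38, a large subunit protein required in the mouse embryo for translation of a subset of Hox messages, had 214, 565, 447 and 255 signal in VIPKO normoxia libraries 1 to 4, against a lowest of 48.5, a median of 74.4 and a highest of 109 in WT normoxia. The 2 groups did not overlap, and Rpl38 rose by 2.18 ± 0.33 on the log2 scale (adjusted p = 0.00197, limma). Rpl39, a short basic protein lining the exit tunnel, had 469, 1044, 812 and 699 signal in VIPKO normoxia libraries 1 to 4, against 124 to 285 in WT normoxia. It rose by 1.94 ± 0.32 (adjusted p = 0.0027, limma), also without overlap.

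Among small subunit members Rps29, a zinc-binding protein, had 1024, 1926, 2358 and 2660 signal in VIPKO normoxia, against 435 to 815 in WT normoxia, and rose by 1.73 ± 0.24 (adjusted p = 0.00179, limma). Rps21 had 368, 1015, 993 and 1057 signal in VIPKO normoxia, against 121 to 409 in WT normoxia. Rps21 rose by 1.84 ± 0.40 (adjusted p = 0.0108, limma), but VIPKO normoxia 1 lay inside the WT normoxia range, and the call was lost without VIPKO normoxia 2 or 4 (adjusted p up to 0.0542).

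Rpl35 and Rpl23a encode neighbours at the mouth of the exit tunnel. Rpl35 had 525 to 890 signal in VIPKO normoxia, against 129 to 432 in WT normoxia, and rose by 1.39 ± 0.29 (adjusted p = 0.00862, limma). Rpl23a rose by 1.68 ± 0.45 (adjusted p = 0.0269, limma), but its row held few reads, with 57.7, 63.0, 149 and 65.0 signal in VIPKO normoxia, against 7.67 to 45.3 in WT normoxia. Summed with copy rows Rpl23a changed by 0.45 ± 0.16 (adjusted p = 0.0826), and its call was also lost without VIPKO normoxia 2, 3 or 4 or WT normoxia 6 (adjusted p up to 0.103). Rpl37, a zinc-binding large subunit protein, had 205, 201, 218 and 149 signal in VIPKO normoxia, against 59.0 to 124 in WT normoxia. It rose by 1.21 ± 0.22 in its own row (adjusted p = 0.00449) and by 1.41 ± 0.22 summed with copy rows (adjusted p = 0.00187).

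The acidic stalk proteins Rplp1 and Rplp2, which recruit elongation factors, rose by 1.01 ± 0.22 (adjusted p = 0.0117) and 1.08 ± 0.21 (adjusted p = 0.00631, limma), while the stalk base Rplp0 was 0.20 ± 0.14 (adjusted p = 0.39). Rpl11, which together with Rpl5 and 5S ribosomal RNA can bind Mdm2, rose by 1.00 ± 0.29 (adjusted p = 0.0351), and Rpl5 was 0.27 ± 0.14 (adjusted p = 0.245). Rps27l, a paralog of Rps27 and a p53 target, rose by 0.93 ± 0.17 (adjusted p = 0.00523), with 229 to 468 signal in VIPKO normoxia, against 149 to 228 in WT normoxia. Rps6, the substrate of the S6 kinases, rose by 1.10 ± 0.24 in its own row (adjusted p = 0.0108), but its sum with copy rows was 0.33 ± 0.12 (adjusted p = 0.0873).

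The 3 lowest values in the same comparison belonged to members with copy rows. Rps23, a protein of the decoding centre, had 530, 292, 362 and 171 signal in VIPKO normoxia, against 304 to 746 in WT normoxia, a change of -0.80 ± 0.32 that was not called (adjusted p = 0.118, limma). Its row held 16.8% of the sum with its copies, and the sum was 0.45 ± 0.18 (adjusted p = 0.116). Rps12 was -0.79 ± 0.28 (adjusted p = 0.080) by row and 0.55 ± 0.17 (adjusted p = 0.0501) summed, and Rpl17 was -0.90 ± 0.52 (adjusted p = 0.287) by row and 1.03 ± 0.18 (adjusted p = 0.00425) summed. The rows and the sums of these 3 members thus had opposite signs. Rps27 was 0.38 ± 0.46 by row (adjusted p = 0.648), and its sum, of which the Rps27 row held 1.99%, rose by 1.40 ± 0.24 (adjusted p = 0.00326). Summed with copy rows, 33 members rose and 0 fell, where 8.56% of all features were called in either direction. These were not all the same members as by row. Rpl3, Rpl18, Rpl19, Rpl23a, Rpl34, Rpl36, Rps6 and Rps18 were called by row only. Rpl17, Rpl28, Rpl30, Rpl31, Rpl35a, Rpl36a, Rps13, Rps27 and Rps27a were called by sum only. Rpl36, for example, was 1.17 ± 0.23 by row (adjusted p = 0.00584) and 0.52 ± 0.20 summed (adjusted p = 0.0986, limma).

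**Figure D2:**
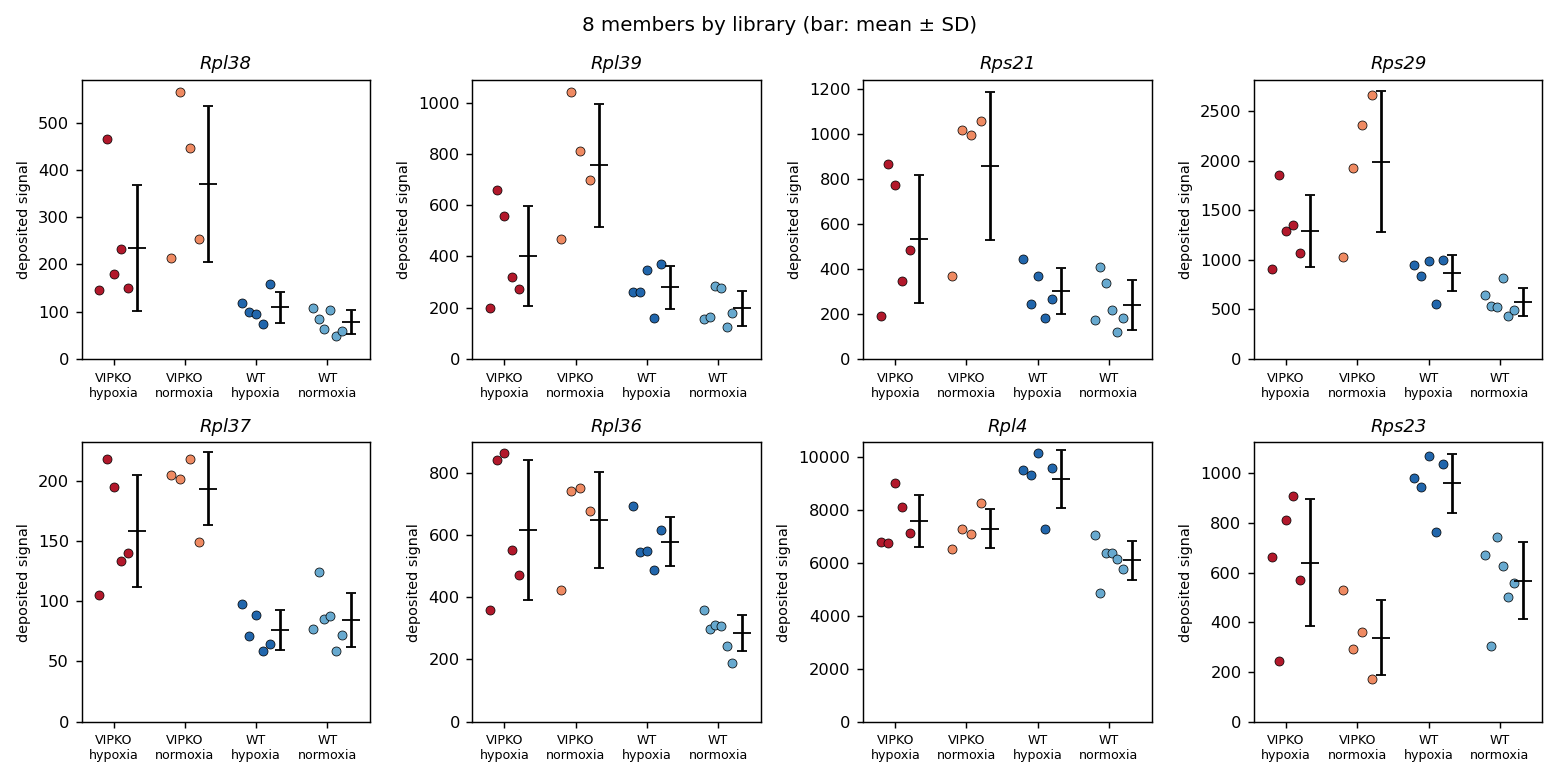
Deposited signal of 8 members in each library (points), with the mean and SD of each group (bars). Rpl38, Rpl39 and Rps29 lie above WT normoxia in every VIPKO normoxia library, Rps21 in all but VIPKO normoxia 1, Rpl4 is highest in WT hypoxia, and Rps23 is lowest in VIPKO normoxia.

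The rises ran with short transcript length. Of the members up to 500 nt long, 10 of 15 rose, with a median of 1.04, while 19 of 191 other protein-coding genes of that length rose, with a median of 0.13. The median was 0.56 for the 22 members of 501 to 700 nt (9 rose) and 0.45 for the 26 of 701 to 1000 nt (10 rose). It was 0.27 for the 14 of 1001 to 2000 nt (2 rose) and 0.46 for the 3 above 2000 nt (1 rose). In these bins, from 501 nt up, other protein-coding genes had medians of 0.17, 0.10, 0.08 and -0.02. Spearman's rho between log2 fold change and length was -0.33 across the 80 members, -0.43 for the members summed with copy rows and -0.21 across 14989 other protein-coding genes, which are not independent replicates. With GC content rho was 0.10 across the members and -0.43 across the other genes. With length and GC content corrected in the fit, 14 members rose and 0 fell.

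**Figure D3:**
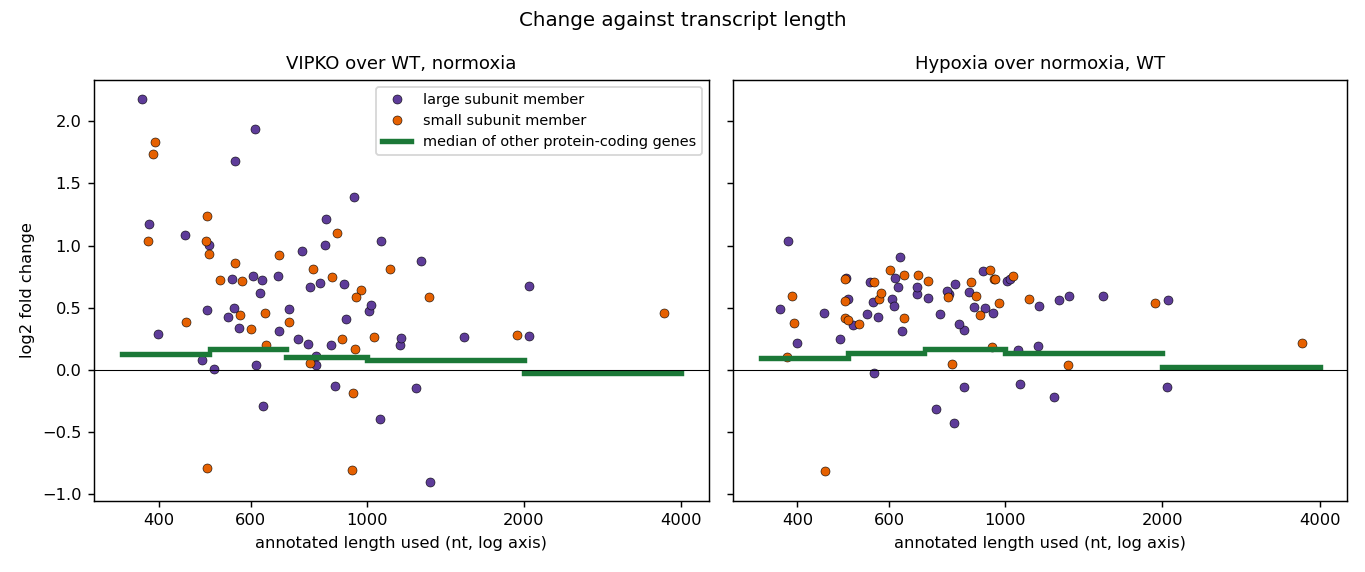
Log2 fold change of each member (points, by subunit) against the transcript length used (nt, log axis), for VIPKO over WT in normoxia (left) and hypoxia over normoxia in WT (right). Green lines are the medians of other protein-coding genes by length bin, the last bin being open above 2000 nt. Members up to 500 nt stand highest in the left panel, with a median of 1.04, and show no such slope on the right.

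The count for VIPKO against WT in normoxia rested on its 4 VIPKO normoxia libraries. It was 16 without VIPKO normoxia 2, 16 without VIPKO normoxia 3 and 17 without VIPKO normoxia 4, and 35 without VIPKO normoxia 1. Lung marker sums were higher in VIPKO normoxia than in WT normoxia, without overlap. The lowest of the 7 lung markers in a library went the other way, at 3053 to 4334 signal in VIPKO normoxia and 5491 to 7327 in WT normoxia. The part of the lung markers in the result was not tested. Mitochondrial ribosomal RNA did not overlap between the 2 groups either, and with its log2 level as a covariate 0 members were called by limma (8 at an unadjusted p under 0.05), the estimate for Rpl39 being 1.10 and that for Rps29 0.98. In these libraries genotype and mitochondrial ribosomal RNA cannot be told apart.

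VIPKO against WT under hypoxia was the second comparison. The members were centred on no change, with a median log2 fold change of 0.01, 0.01 for large and 0.00 for small subunit members, and 41 of 80 positive, against 52.8% of all features. By limma 1 of 80 rose and 0 fell (19 at an unadjusted p under 0.05), where 1.62% of all features were called, 0.716% higher and 0.9% lower. In 3 members the VIPKO hypoxia libraries all lay above the WT hypoxia libraries, and in 0 below, shares that over all features were 1.81% and 1.95%. The member called was Rpl37, which had 105, 218, 195, 134 and 140 signal in VIPKO hypoxia libraries 1 to 5, against 97.4, 71.2, 88.7, 58.5 and 64.6 in WT hypoxia libraries 1 to 5. The groups did not overlap and Rpl37 rose by 1.02 ± 0.21 (adjusted p = 0.0246, limma), a call lost without VIPKO hypoxia 2 (adjusted p = 0.0718), summed with copy rows (0.73 ± 0.21, adjusted p = 0.0747) and in a fit on the compared groups alone (adjusted p = 0.117).

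The others spread to both sides. Rpl38 was 1.00 ± 0.32 (adjusted p = 0.106) and Rps27l 0.43 ± 0.17 (adjusted p = 0.172), and Rps27l did not overlap, with 305 to 385 signal in VIPKO hypoxia, against 187 to 294.5 in WT hypoxia. Rpl5 had 249 to 369 signal in VIPKO hypoxia, against 187 to 243 in WT hypoxia, also without overlap, at 0.38 ± 0.14 (adjusted p = 0.146). Abundant members lay below 0, with Rpl4 at -0.28 ± 0.11 (adjusted p = 0.176), Rps3 at -0.44 ± 0.23 (adjusted p = 0.296) and Rpsa at -0.31 ± 0.14 (adjusted p = 0.225). When libraries were weighted by their quality in the fit, 12 members were called, 1 higher and 11 lower. The share of all features called in that fit is not given here. Without VIPKO hypoxia 3 the count was 5 (1 higher and 4 lower), and without WT hypoxia 4 it was 2.

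Hypoxia in WT lungs was the third comparison, and here the rise was broad and even. By limma 36 of 80 members rose and 0 fell (54 at an unadjusted p under 0.05 in either direction), where 14.7% of all features were called, 7.88% higher and 6.77% lower. This took in 21 of 48 large and 15 of 32 small subunit members, with medians of 0.51 and 0.57, and -0.01 for all features. The interquartile range of the members was 0.37 to 0.67. In 12 members every WT hypoxia library lay above every WT normoxia library and in 0 below, shares that over all features were 4.13% and 3.81%. Summed with copy rows, 47 rose and 0 fell, 24 of 48 large and 23 of 32 small, with an interquartile range of 0.42 to 0.63. In that fit 14.9% of all features were called in either direction.

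Rpl36 changed most. It had 694, 544, 549, 488 and 617 signal in WT hypoxia, against 190 to 359 in WT normoxia, did not overlap, and rose by 1.04 ± 0.21 (adjusted p = 0.00626, limma). Rps2, of the small subunit messenger RNA entry side, had 5134 to 6131 signal in WT hypoxia, against 1956 to 4594 in WT normoxia, and rose by 0.75 ± 0.18 (adjusted p = 0.0117). Rpl27 had 149 to 176 signal in WT hypoxia, against 79.4 to 120 in WT normoxia, and rose by 0.74 ± 0.16 (adjusted p = 0.00825).

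Rpl4, the member with the highest mean signal, had 9506, 9343, 10170, 7285 and 9597 signal in WT hypoxia libraries 1 to 5, against 4859 to 7048 in WT normoxia. The groups did not overlap, and Rpl4 rose by 0.59 ± 0.11 (adjusted p = 0.00308, limma). Rps19, the gene most often mutated in human Diamond-Blackfan anaemia, rose by 0.76 ± 0.15 (adjusted p = 0.00569), Rps14 by 0.80 ± 0.20 (adjusted p = 0.0144) and Rpl32 by 0.80 ± 0.18 (adjusted p = 0.0107). Rpl31 rose by 0.91 ± 0.27 (adjusted p = 0.0302) and Rpl13a by 0.74 ± 0.20 (adjusted p = 0.0191), but Rpl31 was lost without WT hypoxia 1, 3 or 5 or WT normoxia 6 (adjusted p up to 0.0666), and Rpl13a without WT hypoxia 1 or 3 (adjusted p up to 0.0535).

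The members that led in VIPKO normoxia were not called here. Rpl38 was 0.49 ± 0.31 (adjusted p = 0.27), Rpl39 0.51 ± 0.30 (adjusted p = 0.239), Rps21 0.38 ± 0.38 (adjusted p = 0.509) and Rpl37 -0.13 ± 0.21 (adjusted p = 0.681). This comparison and VIPKO against WT in normoxia share the WT normoxia libraries, so their values are only set side by side. Rps27, at -0.82 ± 0.43 (adjusted p = 0.193), and Rpl10, at -0.43 ± 0.20 (adjusted p = 0.141), were below 0 by row, but the sums with copy rows rose, by 0.67 ± 0.23 (adjusted p = 0.0497) for Rps27 and 0.59 ± 0.12 (adjusted p = 0.00669) for Rpl10. Among members length went with these changes less, at a Spearman's rho of -0.03 across the 80, while it was -0.19 across other protein-coding genes. With GC content rho was 0.39 across the members and 0.05 across the other genes. With length and GC content corrected 40 members rose.

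**Figure D4:**
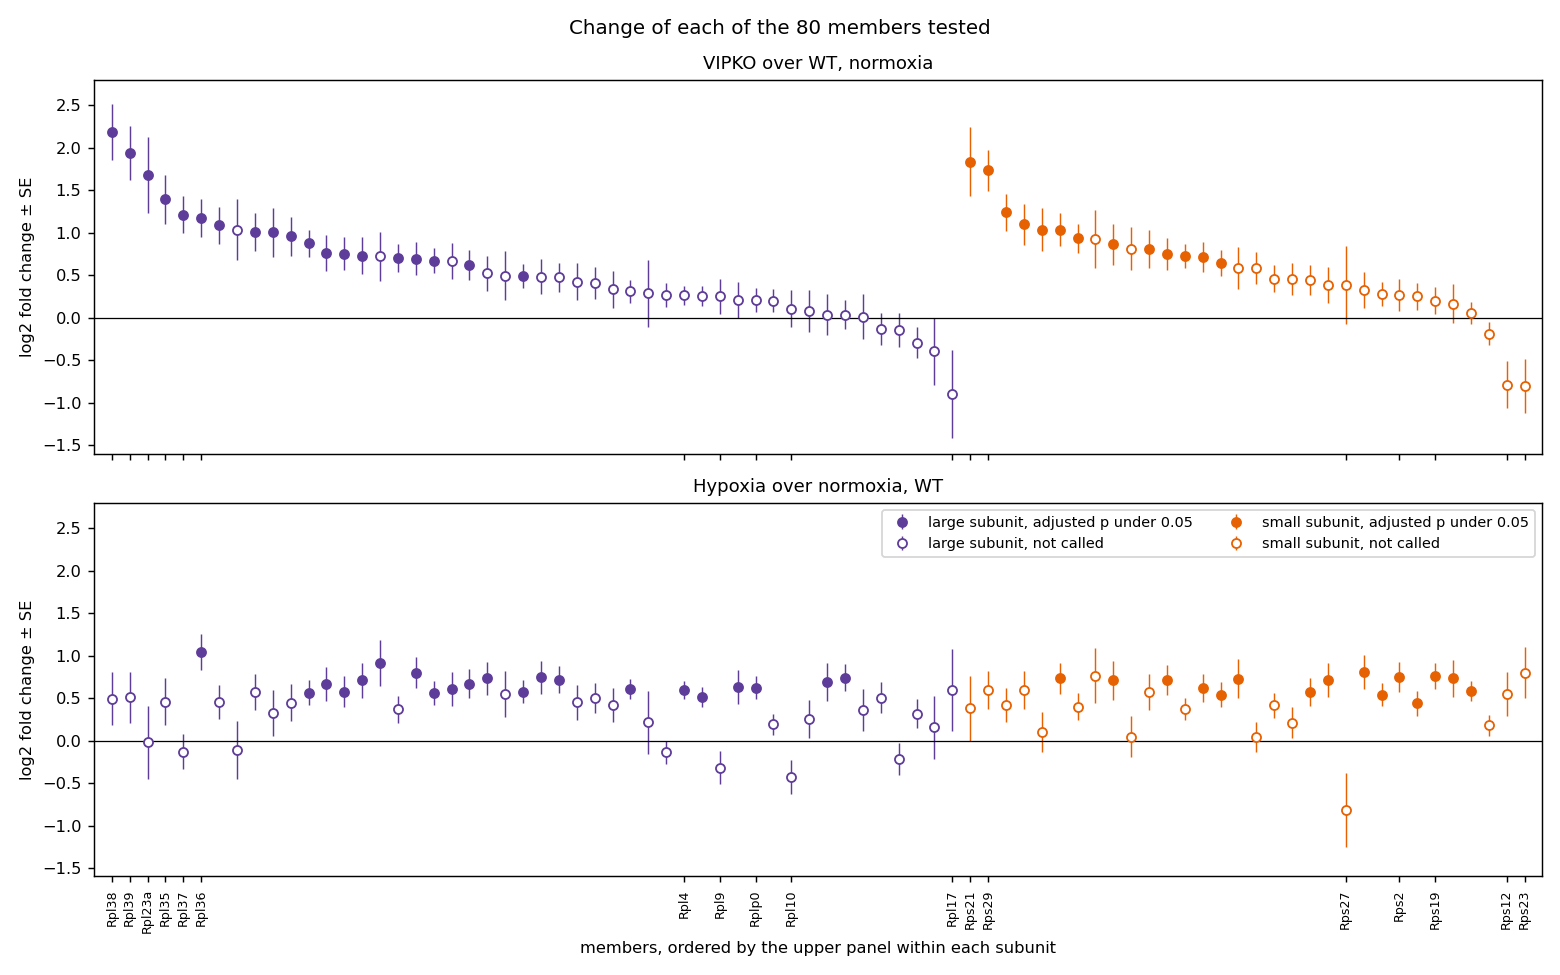
Log2 fold change with SE of each of the 80 members tested, for VIPKO over WT in normoxia (top) and hypoxia over normoxia in WT (bottom), in the order of the top panel within each subunit. Filled points passed an adjusted p of 0.05, and the horizontal axis names members described in the text. Values run from 2.18 (Rpl38) to -0.90 (Rpl17) in the top panel and from 1.04 (Rpl36) to -0.82 (Rps27) in the bottom panel. The interquartile ranges are 0.25 to 0.87 and 0.37 to 0.67. The slope of the top panel follows from the ordering.

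**Figure D5:**
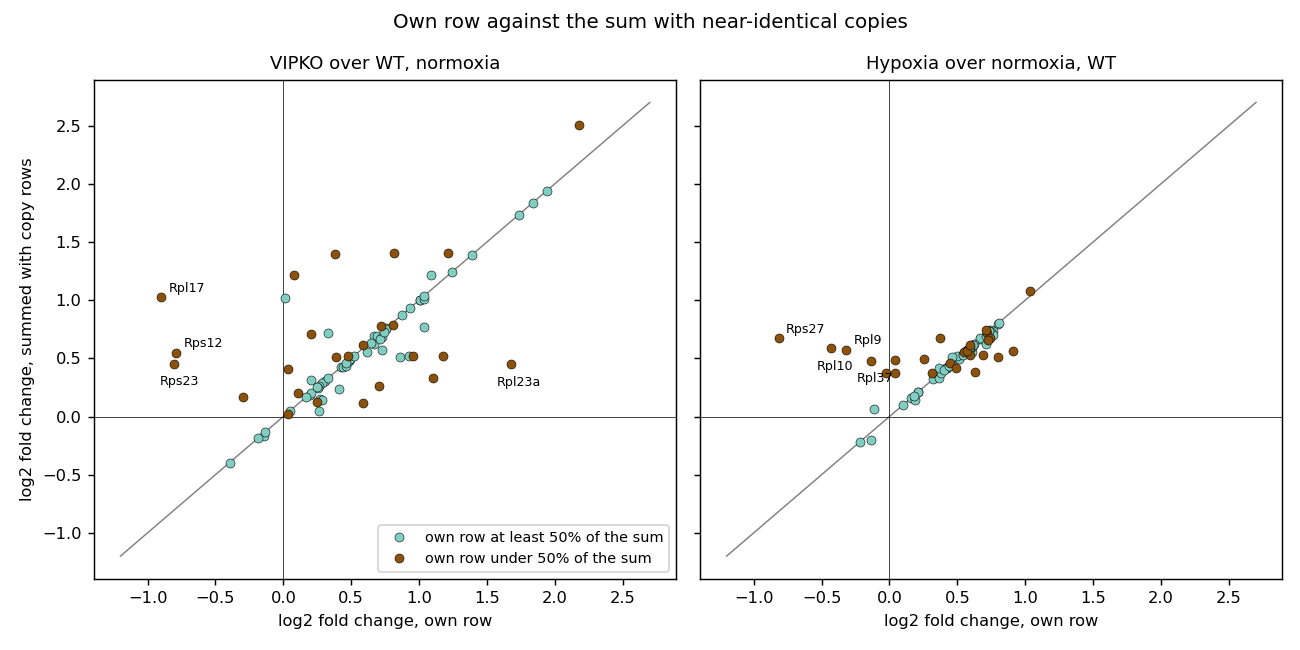
Log2 fold change of each member's own row (horizontal axis) against that of the member summed with its copy rows (vertical axis), for VIPKO over WT in normoxia (left) and hypoxia over normoxia in WT (right). Points off the diagonal are mainly members whose own row held under 50% of the sum, such as Rpl17 (-0.90 by row and 1.03 summed) on the left and Rps27 (-0.82 by row and 0.67 summed) on the right.

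The count for hypoxia in WT was 20 without WT hypoxia 1, 18 without WT hypoxia 3 and 23 without WT hypoxia 5, and 49 without WT hypoxia 4, the shallowest library at 4.96 M reads and the lowest of its group in member share. That library also had an erythroid marker sum of 16361 signal, against 1100 to 2380 in the other WT hypoxia libraries. With mitochondrial ribosomal RNA as a covariate it was 18. The 4 adipocyte markers summed to 428 to 9372 signal in WT hypoxia, against 6.30 to 321 in WT normoxia. The B cell markers summed to 989 to 1936 signal in WT hypoxia, against 1650 to 4598 in WT normoxia. The lung marker sums averaged 590055 signal in WT hypoxia, against 389686 in WT normoxia. The part of these markers in the result was not tested.

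Hypoxia in VIPKO lungs was the fourth comparison. Members were again centred on no change, with a median of -0.02, and by limma 0 of 80 were called (6 at an unadjusted p under 0.05), where 0.997% of all features were called, 0.614% higher and 0.383% lower. No member was without overlap, against 2.7% of all features higher and 2.44% lower. Without VIPKO hypoxia 2 the count was 2, both higher. Values ran from 0.94 ± 0.54 for Rpl17 to -0.99 ± 0.33 for Rpl39. Rpl39 had 199, 660, 557, 319 and 274.5 signal in VIPKO hypoxia, against 469 to 1044 in VIPKO normoxia, with overlap. Rpl4 was 0.05 ± 0.12, with 6765 to 9023 signal in VIPKO hypoxia, against 6544 to 8282 in VIPKO normoxia.

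The interaction asks whether the hypoxia change differs between VIPKO and WT. It was negative for 70 of 80 members, with a median of -0.53 (-0.49 for large and -0.60 for small subunit members), while 51.2% of all features were positive. By limma 0 members were called (39 at an unadjusted p under 0.05), where 0.282% of all features were called, 0.134% higher and 0.148% lower, so for no single member was a different hypoxia response in VIPKO shown. The lowest values were those of Rpl39 (-1.504 ± 0.45, adjusted p = 0.13), Rpl38 (-1.18 ± 0.46, adjusted p = 0.249) and Rps29 (-1.17 ± 0.34, adjusted p = 0.121). With library weights 34 members were called lower. Leaving out 1 library gave 0 to 9, with 9 without WT hypoxia 4, 7 without VIPKO hypoxia 3 and 4 without VIPKO normoxia 1. The shares of all features called in these fits are not given here, so the counts do not set members apart from other features.

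Within a library the members also differed in how evenly they stood relative to WT normoxia. The interquartile range of the members' log2 levels over the WT normoxia mean was 0.29 to 0.82 in VIPKO hypoxia, 0.46 to 0.88 in VIPKO normoxia, 0.29 to 0.46 in WT hypoxia and 0.16 to 0.73 in WT normoxia. It was widest in VIPKO normoxia 3 (0.88), VIPKO hypoxia 2 (0.82) and VIPKO normoxia 2 (0.77), which also held the highest Rpl38 values, 447 and 565 signal in VIPKO normoxia 3 and 2 and 465.7 in VIPKO hypoxia 2. WT normoxia libraries enter that mean themselves, which narrows their own range.

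Over the 20 libraries Rpl38, Rpl23a, Rpl17, Rps21, Rpl39, Rps27, Rps29 and Rps23 varied most (SD of log2 signal from 0.74 to 1.00), while Rpl27a, Rps4l, Rpl5, Rpl7, Rpl4, Rps9 and Rpsa were among those that varied least (0.21 to 0.30). Rpl27a stayed between 305 and 428 signal in VIPKO hypoxia, 352 and 417 in VIPKO normoxia, 367 and 424.8 in WT hypoxia and 237 and 390 in WT normoxia. Of members with a listed start and a test, 15 held the pyrimidine motif and 43 did not. In VIPKO against WT in normoxia 4 of the 15 and 18 of the 43 rose, with medians of 0.26 and 0.59, and in hypoxia against normoxia in WT 7 of the 15 and 19 of the 43 rose, with medians of 0.55 and 0.54.

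Other ribosomal and translation genes were counted beside the members. Of 10 ribosomal protein genes outside the name rule, 4 rose in VIPKO against WT in normoxia, among them Fau, the precursor of a small subunit protein (1.38 ± 0.20, adjusted p = 0.00194), and Rps3a1 (0.65 ± 0.15, adjusted p = 0.0152), while Rack1, the scaffold on the small subunit, was 0.13 ± 0.13 (adjusted p = 0.584). Another of the 4 was Rps27rt (1.43 ± 0.24, adjusted p = 0.00306, limma), a copy row already counted in the Rps27 sum. Rps3a1 averaged 3699 signal in VIPKO normoxia, against 2348 in WT normoxia. Rps3a2, also in this list, went the other way, with means of 2317 and 3281. No sum was made for Rps3a1 and Rps3a2, and whether reads were shared between them was not tested. In hypoxia against normoxia in WT 6 of the 10 rose, with Rack1 at 0.51 ± 0.12 (adjusted p = 0.0124) and Fau at 0.71 ± 0.19 (adjusted p = 0.0206). Of 22 elongation factor and other pyrimidine-tract genes, 8 rose in VIPKO against WT in normoxia (median 0.24), and 15 rose in hypoxia against normoxia in WT (median 0.48), with Eef2, the translocation factor, at 0.58 ± 0.11 (adjusted p = 0.00529) and the poly(A) binding protein gene Pabpc1 at 0.46 ± 0.08 (adjusted p = 0.00329).

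The following counts stand beside shares over all features of 4.69% higher and 3.96% lower for VIPKO against WT in normoxia, and 7.88% higher and 6.77% lower for hypoxia in WT. A count near those shares is no result about its list. Of 31 initiation factor genes 3 rose in VIPKO against WT in normoxia (median 0.07), and 6 rose and 1 fell with hypoxia in WT (median 0.21). Of 60 ribosome biogenesis genes 4 rose and 1, the RNA polymerase I subunit gene Polr1b (-0.37 ± 0.09, adjusted p = 0.0185), fell in VIPKO against WT in normoxia (median 0.13), and 4 rose with hypoxia in WT (median 0.07). Of 78 mitochondrial ribosomal protein genes 9 rose in VIPKO against WT in normoxia (median 0.11), and 13 rose and 1 fell with hypoxia in WT (median 0.23). Of 26 mTOR and MYC control genes 3 rose and 3 fell in VIPKO against WT in normoxia, the falls including Rptor, the mTORC1 scaffold (-0.46 ± 0.08, adjusted p = 0.00306), and the mTORC1 inhibitor Tsc2 (-0.25 ± 0.06, adjusted p = 0.0184). Of 18 p53 targets 3 fell there, among them the cell cycle inhibitor gene Cdkn1a (-0.60 ± 0.19, adjusted p = 0.0493), and of 14 small nucleolar RNA host genes 1, Gas5, rose (0.62 ± 0.15, adjusted p = 0.0186). With hypoxia in WT 2 of the mTOR and MYC control genes rose and 1 fell, 2 of the p53 targets rose and 1 fell, and 2 of the host genes fell.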

How the data were processed

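Whole-lung total RNA was prepared with RNeasy Mini Plus and made into NEBNext Ultra II Directional libraries, per the labels' protocols. The build mm10 and the software Partek are named in the submitters' processing notes. For the aligner, the strand setting, reads with several positions and the normalization method, nothing is stated in the sources used here. Deposited values, which the authors call normalized gene counts, were treated as a signal in arbitrary units. Of 30746 rows, 55 had no gene name (0.00487% to 0.0187% of the signal) and were dropped, and 133 repeat a name.

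Values were taken as log2(signal + 1), which understates fold changes of low genes, and 21658 rows with a signal of 10 or more in 4 or more libraries were tested. A limma 3.58.1 model (R 4.3.3, variance trend) of the 4 group means covered the 20 libraries and gave 5 contrasts, with Benjamini-Hochberg adjusted p-values called at 0.05. The fit was tested on simulated data. Depth is an estimate, the total signal over the most frequent low value taken as 1 read, and no count model was run.

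The members and lists were chosen with earlier results of these data known, so no test was made over the members together. Named members were up to 8 called members with the largest changes in each direction and contrast, the 8 with the largest and the 8 with the smallest SD, the 5 highest in each subunit, and fixed paralogs. From each other list up to 4 called genes with the smallest p could be named. Some genes that this rule names are not reported here. Rplp1, Rplp2, Rpl11, Rps6, Rps12, Rpl10 and Rpl3 were singled out after their values were seen. The members called by row only or by sum only in VIPKO against WT in normoxia were also listed after their values were seen. Lengths, GC content and loci come from GENCODE M21 (GRCm38), by the median-length coding transcript, for 96.7% of tested features. Python 3.11.15, numpy 2.4.6, pandas 2.3.3, scipy 1.17.1 and matplotlib 3.10.9 were used. Alternatives covered the pseudocount (0.5 and 5), the filter, 2 rescalings, library weights, dropping the variance trend, the replicate number as a block, fitting only the groups compared, length with GC content, mitochondrial ribosomal RNA, and leaving out libraries. Summing with copy rows was added after seeing the data.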

Additional observations from a re-analysis of the deposited data

Results flagged for a closer look

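A library was taken up here where its gap to the nearest library of its group exceeded Dixon's 95% value. Among 144 groups of values, 17 were, and chance alone gives about 1 in 20.

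In VIPKO hypoxia 3 the large subunit member Rplp0 was 9334 signal (6127 to 6812 in the others of the group), and the small subunit members Rps2 and Rps9 were 6933 and 7276 (3765 to 4445 and 3515 to 4180). In WT hypoxia 4, the shallowest library, Rpl4 was 7285 (9343 to 10170 in the others), Rplp0 6666, Rpsa 4244 and Rps27 3.95, all low. In WT normoxia 2 Rpl8 was 1643 (3404 to 4703 in the others), Rpl31 129, Rps2 1956 and Rps3 2000, all low, while Rps27 was high at 96.95.

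In VIPKO normoxia 1 the share of all members was 0.611% (0.726% to 0.746% in the others) and Rps21 was 368 (993 to 1057). In VIPKO normoxia 3 Rpl23a was 149 (57.7 to 65.0). In WT hypoxia 5 the muscle paralog Rpl3l was 140.5 (0 to 0.792), and in WT normoxia 4 Rpl39l was 0.344, with 0 in the others.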

How the results depend on the processing

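Changing the pseudocount, the filter, the scaling or the variance trend kept every count of members called within 1.5 times, and no named call changed sign under any alternative run, while the subunit medians of the 2 contrasts centred near 0 did. For VIPKO against WT in normoxia the count of 32 became 18 with the replicate block, 14 with length and GC content corrected, 0 with mitochondrial ribosomal RNA as a covariate, 0 without VIPKO normoxia 2 and 3 and VIPKO hypoxia 2, and 16 to 35 leaving out one library. For hypoxia in WT the count of 36 became 19 with the replicate block, 18 with mitochondrial ribosomal RNA, and 18 to 49 leaving out one library. For VIPKO against WT in hypoxia the count of 1 became 12 with library weights, 0 in each of the fit on the compared groups, the mitochondrial ribosomal RNA fit, the sums with copy rows and the fit without those 3 libraries, 2 without WT hypoxia 5 and VIPKO hypoxia 3, and 0 to 5 leaving out one library. For hypoxia in VIPKO the count of 0 became 2 with library weights and 0 to 2 leaving out one library. For the interaction the count of 0 became 34 with library weights, 2 without WT hypoxia 5 and VIPKO hypoxia 3, and 0 to 9 leaving out one library. The cause of these moves was not tested. These counts stand without the share of all features called in the same fit, so they do not set members apart from other features. Same-numbered libraries did not pair (27 pairs, r from -0.289 to 0.41, 7 over 0.1). Of the values of named members, 13 of the leave-one-out and 30 of the other alternatives fell below the threshold with their direction kept, and 327 and 225 stayed above it. Depth was estimated at 4.96 to 56.8 M reads, and its effect on low rows was not tested. VIPKO normoxia 2 and 3 and VIPKO hypoxia 2 were picked from earlier results of these data. Over all tested features, the deviations of VIPKO hypoxia 2 from its group mean ran with those of VIPKO normoxia 3 (r = 0.56) and 2 (r = 0.41). They ran against those of VIPKO normoxia 1 (r = -0.567) and 4 (r = -0.224). What these libraries share, and its part in the counts, was not tested. Leaving them out keeps 2 VIPKO normoxia libraries, so the counts without them are no measure of stability.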
